A study of Mus musculus with 8 samples.

Results

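The regions described here are 617 of the 19317 genomic regions bound by the zinc finger protein ZFP281 in mammary spheres of MMTV-HER2/Neu mice (3.19% of all regions). They ranked higher in at least 2 libraries of primary tumour (PT) spheres than in any library of early lesion (EL) spheres, and were not absent from EL. These ranks are places in lists of unequal length. They were chosen by the summit scores of all 6 libraries. Summits, the points of strongest signal in each peak, were joined into one region where the gap to the next was 200 bp or less, and the 2897 best-scoring summits of each list were called top summits. That number is the length of the shortest list. A region was taken when it held a top summit in at least 2 of the 3 PT libraries, no top summit in any EL library, and a lower-ranked summit in at least 1 EL library. Ranks and scores were thus used up by the choice, and both are given below as a description, with no test. Without PT replicate 1 or PT replicate 2 the rule gave 400 and 391 regions, since the other two PT libraries then both had to hold a top summit.

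All spheres came from FvB mice that carry the HER2/Neu oncogene under the MMTV promoter, which is active in mammary epithelium. EL cells were taken at 14 to 18 weeks, before a tumour could be felt, and PT cells from tumour-bearing animals older than 20 weeks. Both were cultured for 7 days in mammosphere medium on ultra-low adhesion plates. There were 3 ZFP281 libraries per group, labelled biological replicates, and 1 input per group that was not analysed here. The tissue label of the EL samples reads mammary lung and that of the PT samples breast tumor, and all cells are labelled breast cancer cells. The labels do not say whether animals were pooled. Lists held 7055 to 15770 summits in EL and 2897 to 6033 in PT. Read depth is unknown, and ranks in lists of unequal length do not by themselves show a change in binding.

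ZFP281 is a Krüppel-type zinc finger protein that binds G-rich DNA and is known from the control of pluripotency genes. In early breast cancer it has been studied as a regulator of a mesenchymal-like state. Tight junctions, adherens junctions and keratin filaments, which recur among the genes below, mark the epithelial state.

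The PT side of the choice was shared by all 3 libraries in about as many regions as not. A top summit was present in all 3 PT libraries for 306 of them and in 2 for 311, of which 130 had a lower-ranked summit in the third library and 181 had none. A summit was present in 1 EL library for 188 regions, in 2 for 228 and in 3 for 201. EL replicate 2, the longest list, held 573 of the regions, EL replicate 1 held 429 and EL replicate 3 held 245, and 153 regions had their EL summit in EL replicate 2 alone. The median rank was 4978 in EL replicate 1, 6135 in EL replicate 2 and 4744 in EL replicate 3. For PT replicates 1 to 3 it was 1568, 1728 and 1901.

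The deposited score, read here as the −log10 of a q-value, separated the groups less than the ranks did. Its median over the regions was 7.55, 12.0 and 6.45 for EL replicates 1 to 3 and 9.38, 10.9 and 12.9 for PT replicates 1 to 3. The median of EL replicate 2 lay above those of PT replicates 1 and 2. A top summit needed a score of at least 23.3 in EL replicate 2 but of only 1.42 in PT replicate 1, whose whole list counted as top. Every EL summit scored below every PT summit in 213 regions (34.5%), and the best EL summit scored above the best PT summit in 188 (30.5%). As a percentile of the list, which allows for its length, the best EL summit lay above the best PT summit in 168 regions (27.2%). It lay above the lowest PT summit in 414 (67.1%). The median percentile was 42.0, 61.1 and 32.8 for EL replicates 1 to 3 and 45.9, 57.1 and 68.5 for PT replicates 1 to 3. When the top 25% of each list replaced the fixed number, 111 regions met the rule, and 97 of these were among the 617.

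**Figure D1:**
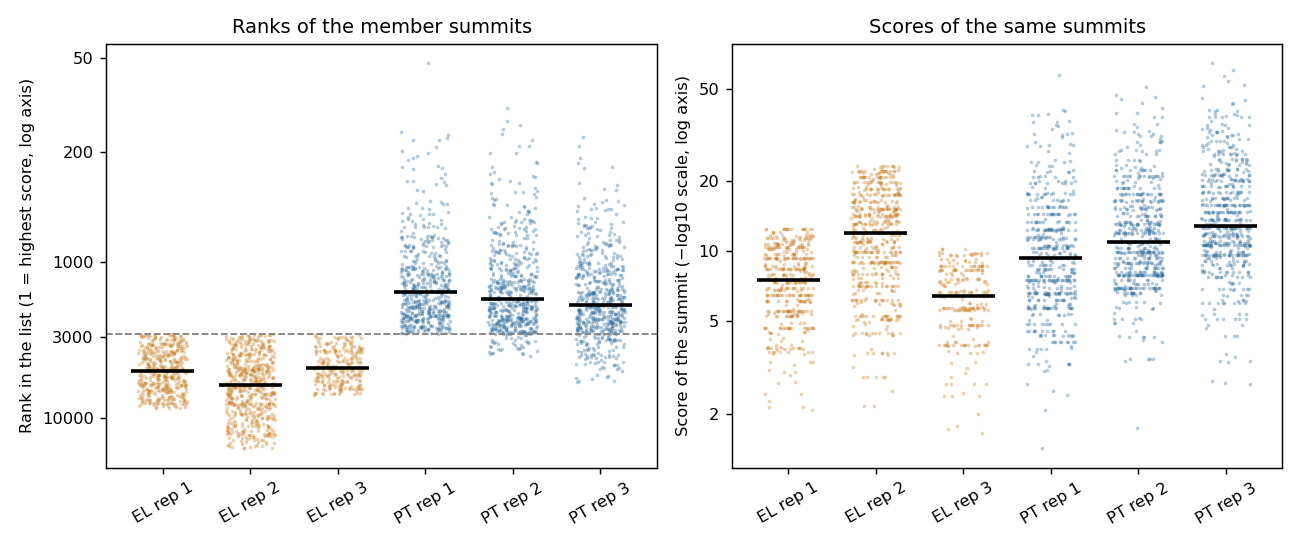
Rank (left, log axis with the best rank at the top) and score (right, −log10 scale on a log axis) of the summit of each region in each library. Points are regions, black bars are medians and the dashed line is rank 2897. EL points all lie below the line, as the rule requires, while the scores of EL replicate 2 (median 12.0) overlap those of the PT libraries.

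**Figure D2:**
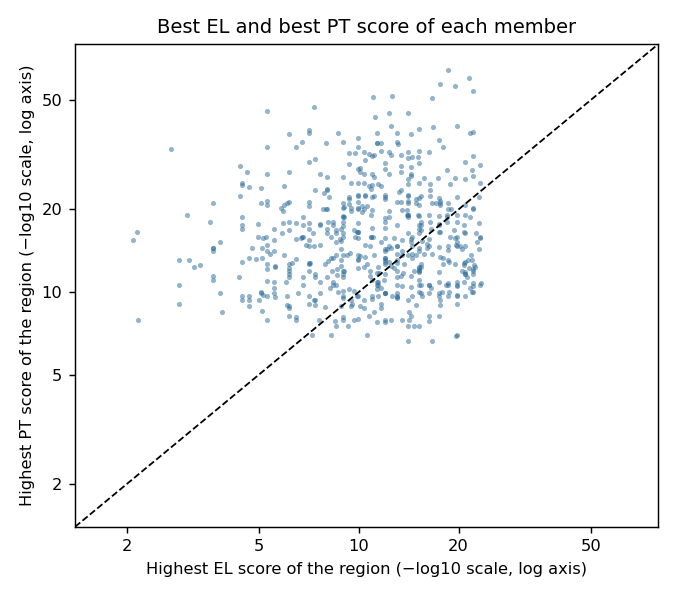
Highest EL score against highest PT score of each of the 617 regions, both on the −log10 scale with log axes. The dashed line marks equal scores, and 188 regions lie below it.

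Sequence could be read where a region's midpoint fell in a promoter window of RefSeq (GRCm38.p6), which runs from 250 bases before to 50 bases after a gene's start. This held for 60 of the 617 regions, in 67 windows. The 5 stretches below show the 250 bases before the start, 5′ to 3′ on the gene's strand. They were chosen after the values were seen: Faf1 and Cldn3 are the highest ranked of the 60, Lalba is a milk protein gene, and Necab2 and Elovl6 hold the full G-rich motif. Capitals mark the 10 bases closest to the G-rich motif described for ZFP281, on either strand. Its full form is the capital run of Necab2.
Faf1, chr4:109676377-109676626, plus strand: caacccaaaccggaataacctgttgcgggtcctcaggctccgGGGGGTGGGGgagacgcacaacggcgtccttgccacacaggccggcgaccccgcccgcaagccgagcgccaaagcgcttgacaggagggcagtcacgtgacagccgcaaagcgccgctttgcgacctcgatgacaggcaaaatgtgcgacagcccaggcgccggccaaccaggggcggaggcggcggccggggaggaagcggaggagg
Cldn3, chr5:134985964-134986213, plus strand: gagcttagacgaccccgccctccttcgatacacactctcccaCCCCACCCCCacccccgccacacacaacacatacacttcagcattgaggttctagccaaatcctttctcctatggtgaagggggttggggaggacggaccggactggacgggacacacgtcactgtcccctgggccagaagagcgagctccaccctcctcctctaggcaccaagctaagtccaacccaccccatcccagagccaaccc
Lalba, chr15:98482684-98482933, minus strand: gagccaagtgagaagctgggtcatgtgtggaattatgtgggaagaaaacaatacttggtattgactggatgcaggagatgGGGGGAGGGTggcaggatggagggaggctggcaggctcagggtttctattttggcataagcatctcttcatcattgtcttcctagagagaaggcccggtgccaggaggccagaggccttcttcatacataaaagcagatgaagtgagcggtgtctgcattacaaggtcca
Necab2, chr8:119446469-119446718, plus strand: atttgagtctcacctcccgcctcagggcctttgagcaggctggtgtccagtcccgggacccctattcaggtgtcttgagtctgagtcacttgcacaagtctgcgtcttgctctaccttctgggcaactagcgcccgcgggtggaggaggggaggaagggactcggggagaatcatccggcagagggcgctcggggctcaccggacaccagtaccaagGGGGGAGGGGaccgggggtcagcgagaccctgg
Elovl6, chr3:129532136-129532385, plus strand: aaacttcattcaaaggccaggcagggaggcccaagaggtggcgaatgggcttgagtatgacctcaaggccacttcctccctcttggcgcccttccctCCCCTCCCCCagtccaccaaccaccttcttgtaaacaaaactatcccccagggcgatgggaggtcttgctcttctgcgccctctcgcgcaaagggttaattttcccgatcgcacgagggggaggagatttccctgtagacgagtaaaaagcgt

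The marked run has 0 mismatches to the motif in Necab2 and Elovl6 and 1 in Faf1, Cldn3 and Lalba. In the Cldn3 promoter it lies at -208 to -199 from the start, and the PT summits lay at -183, -192 and -199 in replicates 1, 2 and 3. The EL summits of that region lay at -316, -216 and -173, a wider span than that in PT. In the Lalba promoter the run lies at -170 to -161, with the PT summits at -175, -151 and -112 and the one EL summit, of EL replicate 2, at -166. The Necab2 run at -33 to -24 had PT summits at -44, -28 and -106 and EL summits at -99, -41 and -84, here with the wider span in PT. The Elovl6 run at -153 to -144 had PT summits at -159, -198 and -170 and EL summits at -134 and -74 in replicates 1 and 2.

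Among the 67 promoter windows, 23 (34.3%) held this full motif on either strand, against 3.27% of all 32817 windows of the table. The share was 56.9% of the 418 windows with a region that was top in at least 2 libraries of both groups. It was 25.7% of the 35 windows with a region ranked higher in EL, and 6 of the 14 windows with top PT summits and no EL summit. With at most 1 mismatch the motif was found in 82.1% of the 67 windows and 24.2% of all. The 3 other classes gave higher shares: 93.5% for top in both groups, 85.7% for ranked higher in EL, and 13 of the 14 windows with no EL summit. In the 23 windows with a full match, the centre of the nearest match lay a median of 37 bp (3 to 181 bp) from the best-ranked PT summit. These shares and distances count windows, not regions. Windows on opposite strands can overlap and share a region and its match, which is then counted for each window. This was so at Zdhhc23 with Gm46552, Pi4ka with Snap29, Gm41549 with Igfals, and Ppfia3 with Mtag2. GC content was also high, with a median of 68.0% against 52.7% in all windows, and the part of GC content in the motif shares was not tested. The shorter GGGAGGGG, which is contained in the first motif, was found in 44.8% against 12.2%. The AP-2 letters GCCNNNGGC were found in 44.8% against 16.6%, the GC box of SP and KLF factors in 25.4% against 5.29%, and the E-box CACGTG in 17.9% against 7.15%. The AP-1 letters TGANTCA (2.99% against 7.81%) and the GATA letters GATAAG (2.99% against 7.45%) were less common in these windows than in the table. Windows with a region top in both groups gave shares on the same side of the table for these letters: 33.5% for AP-2, 21.8% for the GC box, 12.2% for the E-box, 2.39% for AP-1 and 3.11% for GATA. The 35 windows with a region ranked higher in EL gave 22.9%, 17.1%, 5.71%, 5.71% and 2.86% in the same order. In the 14 windows with top PT summits and no EL summit, 4, 3, 1, 0 and 0 held them. No difference between these classes was tested. The grainyhead letters AACNGGTT were found in 2.99% against 2.08%, and a direct repeat of AGGTCA with a gap of 5 bases, the retinoic acid response element, in 0 of the 67 windows and 3 of all.

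Most of the 617 regions lay away from genes' ends. Over 5 kb from every boundary of a protein-coding gene lay 331 regions (53.6%, Wilson 95% interval 49.7% to 57.5%), 186 of them inside a gene and 145 between genes. Within 1 kb of a boundary lay 154 (25.0%), and 132 lay between 1 and 5 kb. All 19317 regions gave much the same picture, with 52.3% over 5 kb and 28.2% within 1 kb, whereas the 1545 regions that were top in both groups gave 28.6% and 51.5%. The mirror class, 263 regions ranked higher in EL by the same rule turned round, gave 47.5% and 31.9%. That class could draw its lower-ranked PT summits from PT replicates 2 and 3 alone, because PT replicate 1 has no summit below its top 2897. Measured to the nearest gene start, 154 of the 617 regions (25.0%, 21.7% to 28.5%) lay within 1 kb, against 30.5% of all regions and 58.9% of those top in both groups. The intervals cover counting error only.

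Position varied with the number of EL libraries that held the region. The share within 1 kb of a boundary was 12.2% of the 188 regions found in 1 EL library, 25.0% of the 228 found in 2 and 36.8% of the 201 found in all 3. The median distance to a boundary was 13055, 5475 and 3484 bp in these classes. The 216 regions with top summits in at least 2 PT libraries and no EL summit at all had 12.5% within 1 kb. Of the 213 regions in which every EL summit scored below every PT summit, 12.7% lay within 1 kb of a boundary and 63.8% over 5 kb away.

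**Figure D3:**
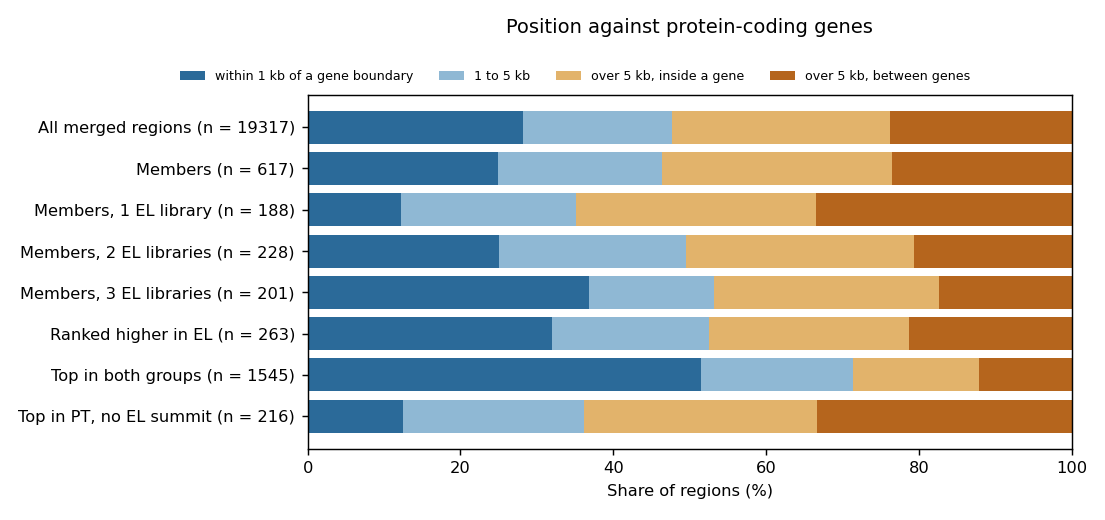
Share of regions (%) by position against protein-coding genes of RefSeq, for all regions, the 617 regions (Members), the members split by the number of EL libraries with a summit, and 3 other classes. The part within 1 kb of a boundary grows from 12.2% to 36.8% of members from 1 to 3 EL libraries, and is 51.5% in regions top in both groups.

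The highest ranked regions at gene boundaries lay at Adcy8, Tkt, Krtcap3 with Nrbp1, Pdcd2l, Kank1, Faf1, Kat8 with Prss8, Cldn3, Etv1 and Lmtk3. The order is by the worst top rank among the PT libraries, with regions top in all 3 first. At Tkt, the gene of the pentose phosphate enzyme transketolase, the region chr14:30548265-30548333 (mm10) lay 832 bp before the gene. It ranked 3125, 4174 and 6517 in EL replicates 1 to 3 and 161, 275 and 413 in PT replicates 1 to 3. Its highest EL score was 16.7 and its lowest PT score 32.8, so the groups did not overlap. Adcy8 encodes an adenylyl cyclase, and its region chr15:64922332-64922506 ranked 5074, 3722 and 3458 in EL and 197, 401 and 159 in PT. The region shared by Kat8, a histone acetyltransferase gene, and Prss8, the gene of the epithelial surface protease prostasin, ranked 692, 679 and 925 in PT against 3119 and 8112 in EL replicates 1 and 2. Etv1, an ETS transcription factor gene, had its region 595 bp from the gene, and its EL replicate 2 score of 19.5 lay above the PT replicate 1 score of 15.5.

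The leading regions deep inside genes, more than 5 kb from any boundary, lay in Actn4, Fam222a, Foxp1, Cyth1, Nmnat2, Cd82, Hs2st1, Ror1, Prim2 and Rgs3. Actn4 encodes the actin crosslinker alpha-actinin 4, and its region chr7:28923913-28923986 ranked 167, 134 and 216 in PT against 6986, 3622 and 4922 in EL. The Foxp1 region, in the gene of a forkhead transcription factor, lay 3006 bp from one of its starts and scored 22.3, 50.8 and 43.0 in PT and 3.80, 16.7 and 6.52 in EL. The Fam222a region had a single EL summit, at rank 12172 in EL replicate 2. Between genes, the leading regions were nearest to Adgrl2, 4930432M17Rik, Sox10, Pabpc1, Sox9 and Zmynd8. The Sox9 region, chr11:112711845-112711982, lay 70297 bp from this gene of a progenitor cell transcription factor, with ranks of 690, 247 and 324 in PT and 5034 in EL replicate 2.

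Rank gaps were widest where EL replicate 2 alone held the region, which list length fixes in advance. EL replicates 1 and 3 held 8588 and 7055 summits, so a region with a summit there could not have a best EL rank beyond 8588. The 5 widest gaps between the worst top rank in PT and the best rank in EL were at Spin1, Cog5, Cxcr4, Fgf12 and Scarb1, with a single EL summit between ranks 14220 and 15507 of that list. Cxcr4 encodes the receptor of the chemokine CXCL12, and its region 67823 bp away scored 12.4, 13.1 and 12.6 in the PT replicates against 2.88 in EL replicate 2. Near the limit, the members with the best EL ranks lay at Itgb5 (2900 in EL replicate 2), Cbfa2t2 (2901 in EL replicate 1) and Ctnnbl1 (2902 in EL replicate 1). Just outside it were regions at Myo1c and Camta1 (2880 and 2874 in EL replicate 3) and at Vdr (2870 in EL replicate 1). The Vdr region, in the vitamin D receptor gene, missed the rule although its PT ranks were 59, 151 and 85.

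Genes of epithelial junctions and keratins recurred near the 617 regions. A region lay inside, within 1 kb of or nearest to 11 of the 36 genes of this list, against 598 of all 21887 protein-coding genes (2.73%). Described here are Cldn3, Cdh1 and Marveld3, and, named after their values were seen, Krt18, Cldn4, Krt8, Pard6b, Cgnl1, Jup and F11r. Of the 36 genes, 0 had a region ranked higher in EL (1.24% of all genes did) and 2 had one that was top in both groups (7.04% of all genes). The list was chosen with earlier results of these data known, and its median gene length of 19.3 kb was close to the 17.2 kb of all genes. Under the alternative forms of the rule the number ranged from 5 to 11 genes. It was 8 with the top 25% of each list, where 0.507% of all genes had a region, and 5 of 36 when every EL summit had to score below every PT summit, where 0.964% had one.

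**Figure D4:**
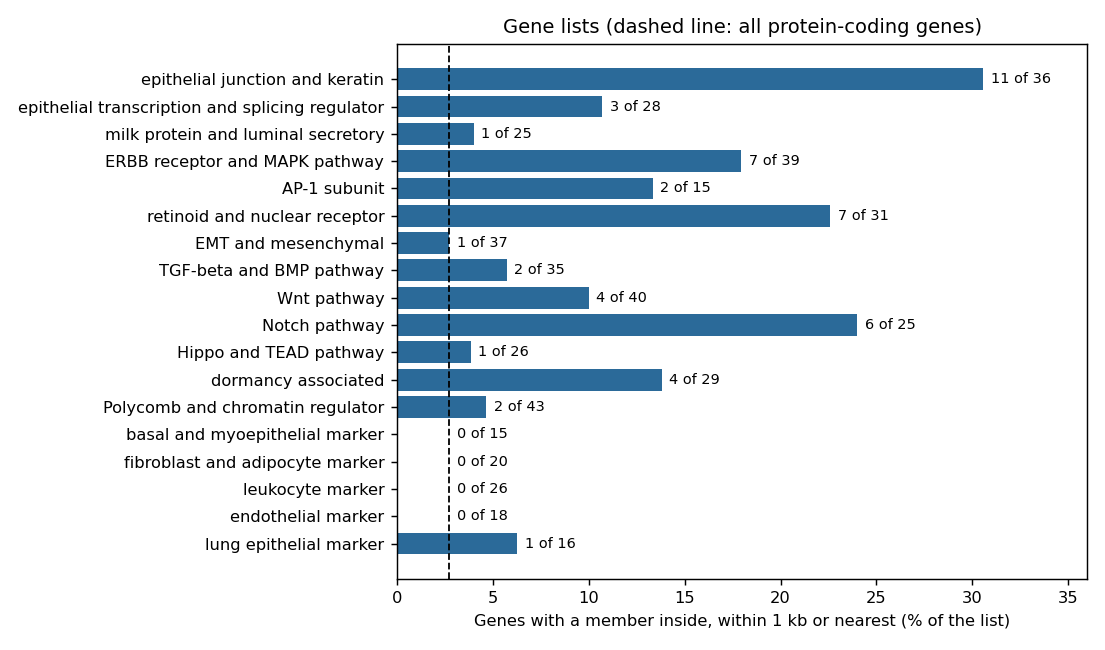
Share of each gene list (%) with one of the 617 regions inside the gene, within 1 kb or nearest to it, with the counts printed beside the bars. The dashed line is the share of all protein-coding genes (2.73%), and epithelial junction and keratin genes stand at 11 of 36.

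A region lay within 1 kb of a boundary at 3 of the 36 genes, Cldn3 and Cdh1 among them, against 171 of all genes (0.781%). Cldn3 encodes the tight junction protein claudin 3, and the region in its promoter scored 6.10, 10.1 and 8.97 in EL and 14.4, 28.2 and 23.4 in PT, each in the order of replicates 1 to 3. The EL and PT scores did not overlap. Cdh1 encodes E-cadherin of adherens junctions, and its region chr8:106602983-106603166, 276 bp from the gene, scored 11.5, 17.5 and 4.06 in EL and 17.7, 17.5 and 19.0 in PT. Its highest EL value was level with its lowest PT value.

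Regions of this list more than 1 kb from a boundary included those at Marveld3, Cldn4, Krt8 and Krt18. Marveld3 encodes a tight junction membrane protein, and its region, 4410 bp inside the gene, scored 13.4, 18.7 and 19.0 in PT and 8.96 in EL replicate 2. At Cldn4, the neighbouring claudin gene, the region 4664 bp from the gene scored 5.55, 12.0 and 5.73 in EL and 10.7, 18.6 and 16.6 in PT. Krt8 and Krt18, the paired luminal keratin genes, each had a region on chromosome 15, 2196 bp from Krt8 (chr15:102006505-102006572) and 11292 bp from Krt18 (chr15:102016874-102016974). Both had a single EL summit, at rank 9608 in EL replicate 2 and at rank 4754 in EL replicate 1. Pard6b, a cell polarity gene, had 2 regions, 2448 bp and 13797 bp from its boundary. The nearer one ranked 2286, 722 and 924 in PT. At Jup, the plakoglobin gene, and F11r, the gene of junctional adhesion molecule A, top summits were present in 2 PT libraries, and the EL replicate 2 score of F11r (9.48) lay above its 3 PT scores (8.89, 6.69 and 7.39). The same held at the farther Pard6b region (19.7 against at most 14.8 in PT) and at Cgnl1, the gene of the junction protein paracingulin (15.7 against at most 13.7).

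**Figure D5:**
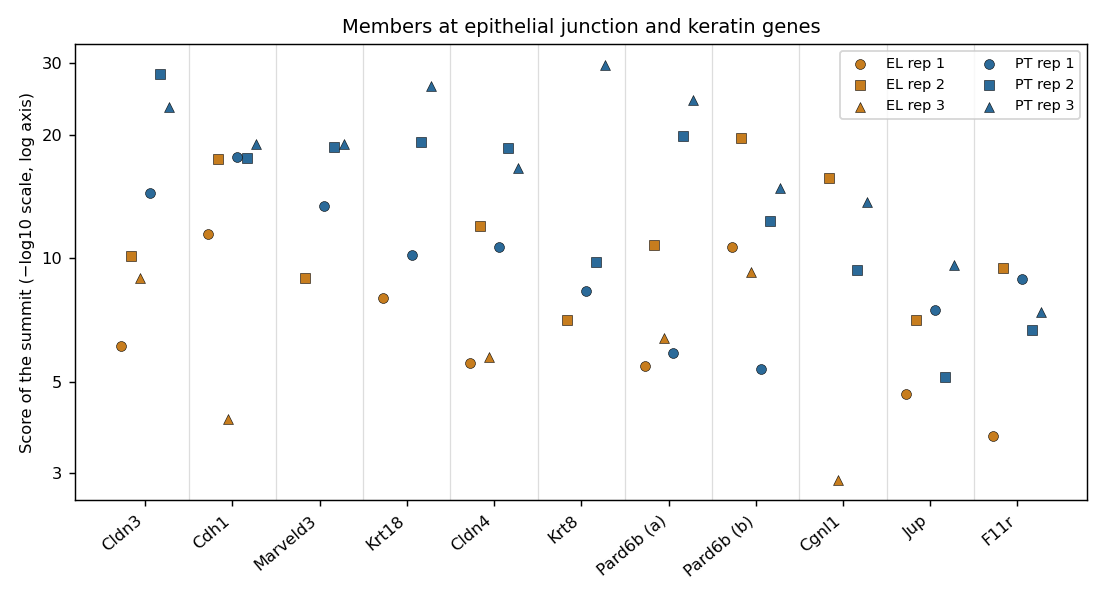
Scores (−log10 scale, log axis) of regions at the epithelial junction and keratin genes named in the text, ordered from the best to the lowest ranked, with one point per library that held a summit. At Cldn3 all PT points (14.4 to 28.2) lie above all EL points (6.10 to 10.1), while at the second Pard6b region, Cgnl1 and F11r the highest point is EL replicate 2.

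Of 28 epithelial transcription and splicing regulators, 3 had a region (Sox9, Tfap2a and Grhl3; 10.7% against 2.73% of all genes). Of 25 milk protein and luminal secretory genes 1 did (Lalba, 4%). For these lists in the same order, regions ranked higher in EL were at 0 and 0 genes, near the 1.24% of all genes in lists of this size. Regions top in both groups were at 4 and 0 (7.04% of all genes). Tfap2a encodes the transcription factor AP-2 alpha and had 2 regions. One inside the gene had ranks of 718, 747 and 1046 in PT and 3169, 4699 and 5646 in EL. The other, 368 bp from the gene's boundary, scored 8.38, 14.1 and 7.63 in EL and 7.84, 7.89 and 22.3 in PT. Grhl3, a grainyhead factor gene of epithelial barriers, had a region 3344 bp inside it that scored 21.1, 22.3 and 18.0 in PT and 12.4 and 15.5 in EL replicates 1 and 2. Lalba encodes alpha-lactalbumin, and its promoter region scored 23.4, 37.9 and 11.6 in PT and 7.07 in EL replicate 2.

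ERBB receptor and MAPK pathway genes, which relay HER2 signals, had a region in 7 of 39 cases: Erbb2, Errfi1, Nrg2, Map2k2, Gab1, Spred1 and Dusp4. This is 17.9% against 2.73% of all genes. The last 3 were named after their values were seen, and this list has long genes, with a median of 58.1 kb. Regions ranked higher in EL were at 2 of the 39 genes (1.24% of all genes), and regions top in both groups at 8 (7.04%). The Erbb2 region, chr11:98419015-98419127, lay 6587 bp inside the mouse gene of HER2 and ranked 1188, 796 and 1191 in PT and 3502 and 8636 in EL replicates 1 and 2. Its lowest PT score (11.5) lay above its highest EL score (10.4), and EL replicate 3 had no summit there. Errfi1, which encodes a feedback inhibitor of the receptors, had a region that ranked 1729, 560 and 2022 in PT and 6855 and 5415 in EL replicates 2 and 3. The Spred1 promoter, of an inhibitor of RAS and RAF signalling, went the other way by score, with 23.2 in EL replicate 2 against 5.72, 3.45 and 15.8 in PT.

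Notch pathway genes had a region in 6 of 25 cases and nuclear receptor and cofactor genes in 7 of 31, which is 24.0% and 22.6% against 2.73% of all genes. Among the Notch genes were Lfng, which encodes a glycosyltransferase of the receptors, Nrarp, a feedback inhibitor, Rbpj, the DNA-binding partner, and Notch4. The Rbpj region lay 85538 bp from its gene. The Lfng region scored 8.16, 21.8 and 21.2 in PT and 6.84 and 14.9 in EL replicates 1 and 2. At Nrarp and at Hes5, named after its values were seen, the EL replicate 2 score of 20.8 lay above every PT score. The highest PT scores there were 17.6 and 10.9. The Lfng, Rbpj, Notch4 and Maml2 regions had their best score in PT. Nuclear receptor genes included Rarb, a retinoic acid receptor, Nr1d1, a clock repressor, Ppara and Thra. The Rarb region inside the gene scored 20.8 in EL replicate 2 and 9.34, 12.3 and 12.6 in PT, and thus had its best score in EL. The receptor list has a median gene length of 41.4 kb. Regions ranked higher in EL were at 0 of the 25 Notch genes and 3 of the 31 receptor and cofactor genes (1.24% of all genes). Regions top in both groups were at 5 and 10 of them (7.04% of all genes).

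The remaining pathway lists are given against the same 2.73% of all genes. The numbers were 4 of 40 (10%) for the Wnt pathway (Ror1, Fzd7, Fzd8 and Wnt7b), 4 of 29 (13.8%) for dormancy-associated genes (Sox9, Rarb, Bhlhe40 and Mapk11), 2 of 15 (13.3%) for AP-1 subunits (Fosl2 and Junb), 2 of 35 (5.71%) for the TGF-beta and BMP pathway (Id3 and Smad7), 2 of 43 (4.65%) for Polycomb and chromatin regulators (Arid1b and Kdm6b), and 1 of 26 (3.85%) for Hippo and TEAD genes (Vgll4). The Fzd7 region, 32591 bp from this Wnt receptor gene, ranked 223, 1035 and 578 in PT and 6142 and 7263 in EL replicates 1 and 2. By score, the best summit was in EL at Rarb, Bhlhe40, Mapk11, Junb, Smad7, Arid1b, Kdm6b and Vgll4. It was in PT at Sox9, Fosl2, Id3 and the 4 Wnt genes. At Kdm6b, EL replicate 2 scored 16.7 and PT at most 6.64. The Fzd8 and Wnt7b regions lay 518605 and 33710 bp from their genes. Within 1 kb of a boundary, 0 of the 40 Wnt genes had a region, which is near the 0.781% of all genes. In the order of the lists above, regions top in both groups were at 6, 8, 5, 11, 23 and 8 genes (7.04% of all genes). Regions ranked higher in EL were at 0, 1, 0, 1, 2 and 1 (1.24%).

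Of 37 genes of epithelial to mesenchymal transition, 1 had a region of this kind, namely Sox4, and this share of 2.70% is level with the 2.73% of all genes. A region ranked higher in EL was present at 9 of the 37, against 1.24% of all genes, and one top in both groups at 5, against 7.04%. The Sox4 region scored 15.5, 9.39 and 15.8 in PT and 8.79, 23.2 and 9.65 in EL, with the highest value in EL replicate 2. Markers of other cell types were at 0 of 15 for basal and myoepithelial cells, 0 of 20 for fibroblasts and adipocytes, 0 of 26 for leukocytes and 0 of 18 for endothelium. With 2.73% of all genes holding a region, a count of 0 in lists of this size is near the overall share. Of 16 lung epithelial markers 1 had a region, the lipid transporter gene Abca3. For these marker lists in the same order, regions ranked higher in EL were at 0, 4, 0, 0 and 0 genes (1.24% of all genes). Regions top in both groups were at 1, 1, 0, 3 and 1 (7.04%). Binding near a marker gene does not measure how many cells of a type a culture held.

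Several genes carried more than one region. Counting regions in the gene or within 10 kb, 3 genes had 3 (Nfix, Rin2 and Slc2a1) and 33 genes had 2. Nfix encodes a nuclear factor I transcription factor, and its 3 regions lay between chr8:84744072-84744107 and chr8:84789962-84790024. The first of them ranked 492, 435 and 909 in PT and 3630 in EL replicate 1. Rin2 encodes a regulator of RAB5, and the region at one of its starts ranked 1215, 2052 and 2593 in PT and 5811, 5541 and 4497 in EL. Slc2a1 encodes the glucose transporter GLUT1, with regions 3875 bp and 11331 bp inside the boundary and 1584 bp outside it. The last of these scored 5.81, 8.99 and 6.90 in PT against 12.0 and 17.6 in EL replicates 1 and 2, so its scores were higher in EL.

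Enzymes of sugar and serine metabolism were also present among these genes, in a list made after their values were seen. Of 30 genes of glycolysis, the pentose phosphate pathway and serine synthesis, 5 had a region: Tkt, Pgd, Slc2a1, Eno1 and Phgdh (16.7% against 2.73% of all genes). A region ranked higher in EL was at 1 of the 30 (1.24% of all genes), and one top in both groups at 5 (7.04% of all genes). The Pgd region, 2217 bp from the gene of 6-phosphogluconate dehydrogenase, scored 27.0, 37.9 and 21.4 in PT and 5.26 and 11.4 in EL replicates 1 and 2. Phgdh encodes the first enzyme of serine synthesis, and its 2 regions ranked 1381, 1005 and 1829 and 1801, 1329 and 1954 in PT. Eno1, the enolase gene, had 2 regions that differed in score. The one 9528 bp away scored 34.7, 21.1 and 12.6 in PT and 6.97 and 13.1 in EL replicates 1 and 2. The region 53 bp from the boundary ranked 2830 and 2569 in PT replicates 1 and 2 and scored higher in all 3 EL libraries (10.9, 14.7 and 6.25) than in PT replicate 1 (3.09).

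The regions were spread over the genome and seldom close to each other. Their nearest neighbour of the same kind lay a median of 730 kb away, and 32 (5.19%) had one within 10 kb. A region top in both groups lay within 10 kb of 54 (8.75%), and one ranked higher in EL within 10 kb of 7 (1.13%). Of the 598 genes with a region inside, within 1 kb or nearest, 99 (16.6%) also had one that was top in both groups, which is 6.42% of the genes with such a region. For regions ranked higher in EL the overlap was 18 genes, 3.01% of the 598 and 6.64% of the genes with an EL-ranked region. By chromosome the regions made up from 0.888% of all regions on X, with 3, to 4.33% on chromosome 8, with 46. The Y chromosome had 1 region in all, which was not of this kind. Copy number was not analysed here.

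Where summits lay within a region entered the rule only through the merging distance, but the regions were chosen by scores under the same group labels. Summits of the same region lay a mean of 63.8 bp apart for pairs of libraries from different groups and 61.5 bp for pairs within a group. In a two-sided exact permutation test over libraries the difference of 2.3 bp gave p = 0.1, which is the lowest value possible with 3 libraries a group. The test exchanges labels over regions already chosen by those labels, so it cannot decide whether the groups differ in summit position. The sign of the difference turned without PT replicate 1, 2 or 3 (-4.89, -2.77 and -0.498 bp), and was kept without EL replicate 1, 2 or 3 (5.40, 5.14 and 1.68 bp). Leaving out a library also changes the set of regions and the balance of EL and PT pairs, so no call is made from this difference. Pairs within PT lay a mean of 55.8 bp apart and pairs within EL 67.2 bp, whereas in regions top in both groups the order was 51.2 and 42.7 bp. The p-values reflect the spread between these libraries in regions chosen by group, and the animals behind the libraries are not given.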

How the data were processed

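Chromatin bound by ZFP281 was sequenced in pairs of 150-bp reads, as the labels' protocols give it. The submitters' processing notes name Bowtie2 2.3.4.3, Picard and the build mm10. Neither the peak caller nor its use of the inputs is given in the sources used here. For each library the authors deposited a list of summits, each with a position and a score taken here as −log10 q, because no list holds a value below 1.30, which is −log10 of 0.05. Scores are not scaled to depth, which is unknown.

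Ranks were taken by score within chromosomes 1 to 19, X and Y, at 1-based positions. Genes and promoter sequences came from RefSeq tables of GRCm38.p6, the mm10 build, with 21887 protein-coding genes, of which 79.9% have an entry in the promoter table. For the others either gene boundary served as start. Regions were placed by their midpoint. The offset of summits was compared by an exact permutation test over 20 relabellings, with the regions kept as chosen under the true labels. Python 3.11.15 with pandas 2.3.3 and scipy 1.17.1 was used. The rule was tried on simulated lists with clearly separated scores, unlike the overlapping scores here. The offset test was tried there only on regions top in both groups, so its use on regions chosen by group was not checked.

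The regions, the 18 gene lists and the tests were chosen with earlier results of these data known. Named were the first 10 regions at boundaries, 10 distal inside genes and 6 between genes, the 5 widest rank gaps, 3 regions on each side of the limit, genes with 3 or more regions, and up to 4 genes per list. Others were named after their values were seen, as were GCCNNNGGC, the GC box, AACNGGTT and the single mismatch, the metabolic list, and the score condition. The result for 1 further pattern searched is not printed. One gene counted in a list is not reported here. Alternatives varied the merging distance, the number of top summits, the number of libraries, the score, the chromosomes, the window and the genes, and left out each library.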

Additional observations from a re-analysis of the deposited data

How the results depend on the processing

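The number of regions was 617 and stayed within 1.5 times of it at merging distances of 50, 500 and 1000 bp, with the top 2000 summits, a score of at least 5, autosomes, and an EL summit in at least 2 libraries or not required. It was 251 with the top 1000 summits, 111 with the top 25%, 306 with all 3 PT libraries, 201 with all 3 EL libraries and 213 when every EL score had to lie below every PT score. Leaving out 1 library gave 391 to 692 regions, and 461 of the 617 remained without EL replicate 2. The share within 1 kb of a gene start, 25.0%, became 29.1%, 15.3%, 21.2%, 37.8% and 11.7% in those 5 settings in the same order, 31.2% with at least 2 EL libraries, 21.6% with no EL summit required, 18.3% and 42.9% with windows of 500 bp and 5 kb, 29.0% with all annotated genes, and 21.6% to 31.8% with a library left out. The share over 5 kb from a boundary, 53.6%, became 60.4% with the top 25%, 48.7% with at least 2 EL libraries, 46.8% with all 3, 63.8% with the score condition, and 48.5% to 56.0% with a library left out. The summit offset of 2.3 bp became -0.497 bp at a merging distance of 50 bp and ranged from -4.89 to 5.40 bp with a library left out; the cause was not tested. With the replicate numbers as a block the offset was 2.3 bp with an exact p = 0.25, the smallest that 8 relabellings allow, and the block changed no call. Nothing in the lists shows that numbers pair the libraries, and a pairing was not tested further. Read depth behind each list is unknown, so ranks and scores could not be scaled by it.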
